A study of Mus musculus with 4 samples.

Results

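Potassium channel genes were taken as every gene of the deposited expression tables whose symbol begins with Kcn, continues with letters and ends in a number. Antisense and overlapping transcripts with other symbols were left out. The rule found 92 of 22096 gene symbols, with 133 RefSeq transcript entries between them, and 19 of the 92 genes had more than 1 entry. RNA-seq had been carried out on palatal mesenchyme of 4 mouse embryos at E13.5, when the palatal shelves grow downward beside the tongue. The controls were 1 wild-type embryo (Foxf2+/+Osr2RFP/+ in the study, labelled only Osr2RFP/+) and 1 heterozygote (Foxf2+/-Osr2RFP/+), and they were compared with 2 mutants (Foxf2-/-Osr2RFP/+, replicates 1 and 2, called mutant 1 and mutant 2). The embryos were littermates of a mixed strain background. All 4 carried the Osr2RFP knock-in allele, so the controls too had 1 modified Osr2 allele, and the sort kept only cells that made the reporter. Foxf2 encodes a forkhead transcription factor that is needed in this mesenchyme for palate closure.

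Potassium channels let potassium leave or enter the cell down its gradient and so set and reset the membrane voltage. Inward rectifiers and two-pore-domain channels hold the resting potential. Voltage-gated channels open on depolarization, calcium- or sodium-activated channels open when those ions rise inside the cell, and auxiliary subunits alter the gating or trafficking of the pore. The family has a known place in palate development, since loss of the inward rectifier Kir2.1, encoded by Kcnj2, causes cleft palate in mice, and dominant KCNJ2 mutations cause Andersen-Tawil syndrome, in which facial features can include a cleft palate.

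The pore-forming members share the selectivity filter, the short stretch of the pore that admits potassium. Its 5 codons were searched in frame on the coding strand of the mm9 GENCODE coding sequences, with ACNNTNGGNTANGGN as the form that ends in glycine-tyrosine-glycine and ACNNTNGGNTTNGGN as the form with phenylalanine or leucine in place of the tyrosine. The forms cannot overlap at 1 position. Either form was present in 62 of the 76 pore-forming or modifier genes with a coding sequence (81.6%), in 0 of 15 auxiliary genes, and in 126 of all 21734 coding genes (0.580%). The filters of 5 expressed subunits are shown because they place Kcnj2 beside the leak, voltage-gated and modifier subunits found with it in these cells. Each runs 5′ to 3′ on the coding strand with the filter codons in capitals.
Kcnj2: cagacaACCATTGGCTATGGTttcaggtgt
Kcnj13: caacttACAATTGGTTATGGTaccatgttt
Kcnk2: ctgacgACCATTGGATTTGGAgactacgtg
Kcna6: atgaccACGGTAGGTTATGGGgacatgtac
Kcng1: atgacaACCGTAGGCTACGGAgacatggta
The stretch printed for Kcnj2, filter codons and flanks together, lies at chr11:110933515-110933544 on the plus strand, in the last of its 2 exons. The other printed stretches lie on minus strands, at chr1:89285587-89285616 (Kcnj13, exon 2 of 3), chr1:191080451-191080480 (Kcnk2, exon 5 of 7), chr6:126688656-126688685 (Kcna6, exon 1 of 1) and chr2:168088132-168088161 (Kcng1, exon 3 of 3). All are coding sequence. The capitals of Kcnj13 match those of Kcnj2 at 13 of 15 bases, and those of Kcna6 match them at 10. The match was absent from Kcnj14 among the inward rectifiers and from the Kcnh genes other than Kcnh5 among the voltage-gated ones. It was also absent from Kcnk1 and Kcnk7, and from Kcnma1, Kcnn1, Kcnn2 and Kcnn3 among the calcium- or sodium-activated channels. The coding sequences searched for Kcnma1 (699 bases) and Kcnh8 (648 bases) were short beside those of Kcnu1 (3366) and Kcnh5 (2967). They may not hold the whole pore, so an absence there does not show that the filter differs. Kcnk2 holds the phenylalanine form in both of its pores, and the second is the one printed.

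Foxf2 itself was at 85.4 FPKM in wild type, 45.1 in the heterozygote, and 1.41 and 2.28 in the mutants (log2 fold change -5.03, SE 0.31, limma with Benjamini-Hochberg adjusted p = 0.00427), as the genotype labels state. FPKM divides fragments by transcript length and by library size, so levels of different genes can be set side by side. The 9 palatal mesenchyme markers summed to between 1042 and 1172 FPKM in every embryo, with Osr2 at 129 to 147. Of the markers of other cells, those of red blood cells and of pericytes and vascular smooth muscle had the highest sums. The latter summed to 54.5 to 60.4 FPKM, of which Pdgfrb, a receptor that mesenchymal cells also make, held 36.4 to 40.6. Endothelial markers summed to 0.404 to 1.503 FPKM, with Cldn5 at 0 in every embryo, and skeletal muscle markers to 0.406 to 0.882, with Myog at 0. Epithelial markers summed to 9.30 to 11.3 FPKM and neuronal and glial markers to 4.55 to 10.6, and those of macrophages to 6.63 to 11.5. Erythroid markers summed to 296 FPKM in wild type, 1780 in the heterozygote, and 1549 and 4240 in the mutants. Numbers of reads are unknown, but the ratio of deposited coverage to FPKM put the libraries within 1.19-fold of each other in relative depth. In bulk RNA of this kind, fewer cells that express a gene and less of its RNA per cell cannot be told apart.

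Palatal mesenchyme expressed potassium channel genes at low levels. The highest value of any member in any embryo was 4.75 FPKM, for Kcnip3, and all 92 genes were under 5 FPKM in every embryo. A level of 1 FPKM in at least 1 embryo was reached by 19 of the 92 genes (20.7%), against 54.2% of all genes, and a level of 1 in every embryo by 9 (9.78%), against 50.1%. A further 42 genes peaked between 0.1 and 1 FPKM and 20 peaked under 0.1. The other 11 genes were listed at 0 in every embryo, namely Kcna7, Kcna10, Kcnh4, Kcnj4, Kcnj6, Kcnk9, Kcnk10, Kcnk12, Kcnk15, Kcnk16 and Kcnk18. Summed over all members, expression was 45.6 FPKM in wild type, 46.6 in the heterozygote, and 44.5 and 46.8 in the mutants. The 2 mutants thus lay on either side of the controls, with close group means (46.1 ± 0.713 in controls and 45.6 ± 1.62 in mutants, SD, n = 2 each).

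**Figure D1:**
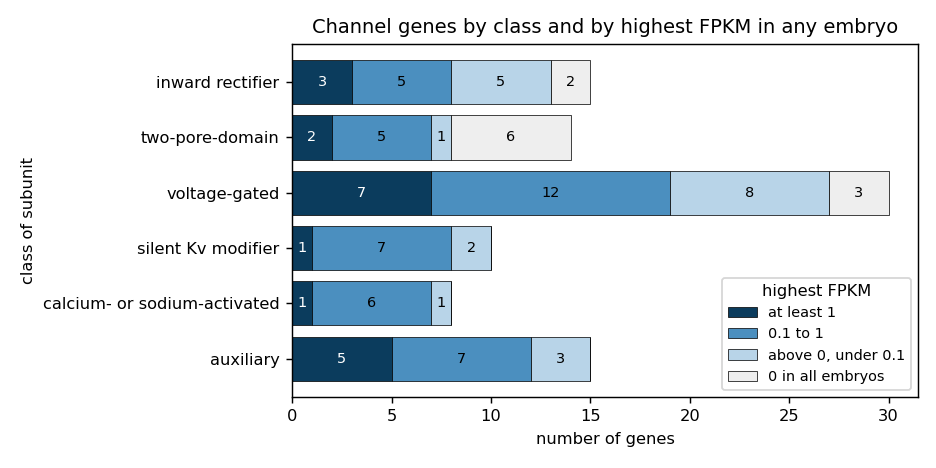
Number of potassium channel genes in each class of subunit (horizontal axis), coloured by the highest FPKM that the gene reached in any of the 4 embryos. Voltage-gated channels hold the most genes at 1 FPKM or more (7 of 30), and 6 of 14 two-pore-domain genes are listed at 0 in all embryos.

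Voltage-gated pores made up 28.1% to 31.8% of the summed FPKM, auxiliary subunits 27.0% to 29.5%, inward rectifiers 14.9% to 16.2% and two-pore-domain channels 11.3% to 13.8%. The 6 genes with the highest means were Kcnj2, Kcnmb4, Kcnip3, Kcna6, Kcnk2 and Kcnk1, which together held 39.2% to 46.6% of the sum. Their means over the 4 embryos fell from 3.96 FPKM for Kcnj2 to 3.86 for Kcnmb4, 3.78 for Kcnip3, 3.06 for Kcna6, 2.32 for Kcnk2 and 1.93 for Kcnk1. The per-embryo ranges of the first 3 overlapped, and their order changed from embryo to embryo. The ranges of Kcnk2 and Kcnk1 overlapped too, but Kcnk2 was the higher of the pair in every embryo. Kcna6 overlapped Kcnip3 but stayed below every value of Kcnj2 and Kcnmb4.

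**Figure D2:**
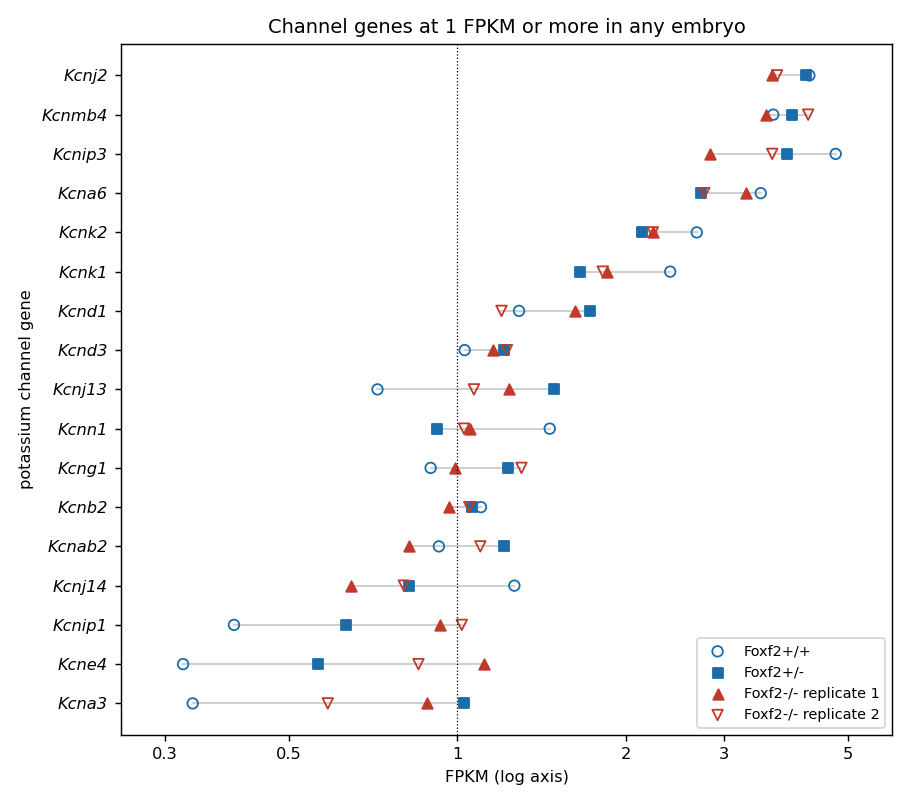
FPKM on a log axis (horizontal) of 17 potassium channel genes that reached 1 FPKM in at least 1 embryo (vertical, ordered by mean), with 1 symbol for each embryo and a dotted line at 1 FPKM. Symbols of the 4 embryos lie close together for Kcnj2 (3.65 to 4.26), while both mutant (Foxf2-/-) symbols lie to the right of both controls for Kcnip1 and Kcne4.

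Among the 15 inward rectifiers, Kcnj2 was the leading gene and the pore-forming subunit with the highest mean in the whole family. It was at 4.26 FPKM in wild type, 4.20 in the heterozygote, and 3.65 and 3.73 in the mutants. Both mutants were below both controls, as for 35.5% of all genes past the filter, and the controls differed from each other by less than the groups did. On the scale of all expressed genes this was a modest level, since 67.3% of the 11571 genes past the filter had a higher mean. The other Kir2 members were lower or listed at 0, with Kcnj14, which encodes Kir2.4, between 0.647 and 1.26 FPKM, Kcnj12 under 0.1 and Kcnj4 at 0. Kcnj14 passed the filter only through the wild-type embryo. Kcnj13, which encodes the transport-type rectifier Kir7.1, was at 0.720 FPKM in wild type, 1.49 in the heterozygote, and 1.24 and 1.07 in the mutants, so the controls lay on either side of the mutants. The remaining rectifiers peaked at 0.721 FPKM or less. Kcnj3, a G protein-gated subunit, had the highest mean of them at 0.353 FPKM.

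Kcnj2 spans chr11:110927478-110938139 in mm9. Its neighbour on 1 side is another inward rectifier, Kcnj16, 38.2 kb away with 0 genes between them, and Sox9, the chondrocyte regulator, lies 1.71 Mb away. The neighbours were not expressed alike, since Kcnj16 stayed between 0.148 and 0.171 FPKM in the 4 embryos.

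Of the 14 two-pore-domain genes, which carry background leak currents, only Kcnk2 and Kcnk1 reached 1 FPKM. Kcnk2, the mechanosensitive channel TREK-1, was at 2.68 FPKM in wild type, 2.14 in the heterozygote, and 2.24 in both mutants. Kcnk1, known as TWIK-1, showed 2.40 FPKM in wild type, 1.66 in the heterozygote, 1.85 in mutant 1 and 1.82 in mutant 2. For both genes the mutants lay between the controls. The next was Kcnk6, with at most 0.687 FPKM.

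Voltage-gated pores were led by Kcna6, a delayed rectifier of the Kv1 family, at 3.49 FPKM in wild type, 2.72 in the heterozygote, and 3.28 and 2.76 in the mutants. Its groups overlapped. The Kv2 channel Kcnb2 was at 1.10 and 1.06 FPKM in controls and 0.967 and 1.05 in mutants, with means of 1.08 and 1.01. The Kv4 channels, which carry transient A-type currents, were represented by Kcnd1, between 1.20 and 1.73 FPKM, and Kcnd3, between 1.03 and 1.23, each with overlapping groups. Kcna3, a Kv1 channel best known from T cells, ranged from 0.336 to 1.03 FPKM, and both extremes were controls. Among the 12 voltage-gated genes that peaked between 0.1 and 1 FPKM, Kcna5 had the highest mean at 0.600 FPKM. Kcnq1 was under 0.1 FPKM, while the transcript Kcnq1ot1, which runs antisense to it, was between 1.70 and 2.21. The library kit does not mark strand, so reads from the pair cannot be told apart where they overlap.

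The silent Kv modifiers conduct no current alone and join Kv2 subunits. Of these 10 genes, Kcng1 reached 1 FPKM, with 0.896 and 1.24 in the controls and 0.992 and 1.30 in the mutants. Kcns2 followed, between 0.533 and 0.800. Of the 8 calcium- or sodium-activated channels, only Kcnn1, the small-conductance channel SK1, reached 1 FPKM, at 1.46 in wild type, 0.920 in the heterozygote, and 1.06 and 1.03 in the mutants. Kcnma1, the pore of the large-conductance BK channel, lay just under the filter, between 0.723 and 0.946 FPKM. The groups overlapped for Kcng1, Kcnn1 and Kcnma1.

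Auxiliary subunits included some of the highest members. Kcnmb4, a beta subunit of the BK channel, was at 3.67 FPKM in wild type, 3.96 in the heterozygote, and 3.56 and 4.24 in the mutants, and its mean was 4.44 times that of Kcnma1, the pore it joins. Kcnip3, a calcium-binding partner of Kv4 channels that is also the transcriptional repressor DREAM, was at 4.75, 3.89, 2.83 and 3.66 FPKM in the same embryos. Both mutants were below both controls, as for 35.5% of all genes past the filter. Kcnip1, another Kv4 partner, was at 0.399 and 0.633 FPKM in controls and 0.931 and 1.02 in mutants. Kcne4, a small membrane protein that inhibits several voltage-gated channels, was at 0.323 and 0.563 FPKM in controls and 1.12 and 0.852 in mutants. For both genes both mutants were above both controls, as for 10.2% of all genes past the filter, and both passed the filter only through a mutant. Kcnip1 lies on chromosome 11, 0.482 Mb from the growth factor gene Fgf18 with 4 genes between them. Fgf18 was at 15.4 and 14.6 FPKM in controls and 28.96 and 30.35 in mutants. Kcnmb1, which lies within the span of Kcnip1, stayed under 0.1 FPKM with overlapping groups. A link between the values of Kcnip1 and Fgf18 was not tested. The Kv1 beta subunit Kcnab2 ranged from 0.821 to 1.21 FPKM with overlapping groups. Kcnip4, which peaked at 0.776 FPKM, rested on an entry that Cufflinks marked as low data in all 4 embryos.

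Transcript entries of a gene were less stable than its sum. Kcnip3 had 2 entries, and NM_001111331 held 99.98% of the sum in wild type, 58.9% in the heterozygote, and 27.0% and 65.0% in the mutants. For Kcnk2, NM_010607 led in the wild-type embryo with 84.6%, NM_001159850 in the heterozygote with 99.6% and in mutant 2 with 69.6%, and the non-coding NR_027627 in mutant 1 with 99.9%. For Kcnd3 the longer entry, NM_001039347, led in every embryo with 61.9% to 73.5%, and for Kcnip1 NM_027398 led with 67.7% or more. No entry is therefore compared between genotypes, and the sums are used throughout.

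Whether loss of Foxf2 altered the family was asked with limma on log2(FPKM + 0.1) across the 11571 genes at 1 FPKM or more in at least 1 embryo, which include 19 members. A call needed an adjusted p under 0.05 and more than 1.5-fold. Of the 19 channel genes 0 were called, against 7 of all genes (0.0605%). At an unadjusted p under 0.05 there were 2, Kcne4 and Kcnip3, against 1506 of all genes (13.0%). Adjusted p-values of the 19 genes ran from 0.358 to 0.956. The fitted change was above 0 for 8 genes and below 0 for 11, with a median of -0.09 on the log2 scale, beside -0.08 over all genes. The median SE was 0.26 for the channel genes and 0.12 for all genes, so changes had to be larger in this family to be seen. The 95% intervals of 4 genes, Kcnj2, Kcnmb4, Kcna6 and Kcnk2, lay within 1.5-fold in both directions, and the other 15 reached past it.

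**Figure D3:**
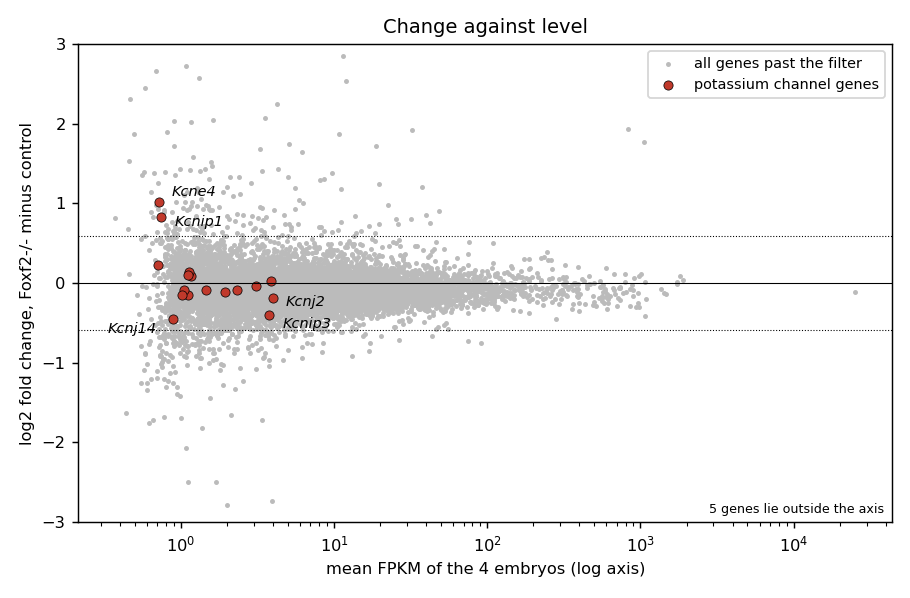
Limma log2 fold change of Foxf2-/- minus control (vertical) against the mean FPKM of the 4 embryos on a log axis (horizontal), with grey points for all 11571 genes past the filter, red points for 17 potassium channel genes, and dotted lines at 1.5-fold. The channel genes sit at the low end of the expression range, where the grey cloud is widest, and 2 of them, Kcne4 and Kcnip1, lie beyond a dotted line.

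Kcnj2 in mutants was at 0.87 times its control level on this scale (log2 fold change -0.19, SE 0.12, 95% interval -0.47 to 0.08, limma adjusted p = 0.523). The interval reached no further than 0.47 below 0, so a loss of 1.5-fold, which is 0.58 on the log2 scale, lay outside it. Kcnip3 was lower by 0.41 (SE 0.17, interval -0.80 to -0.01, limma adjusted p = 0.372) and Kcnj14 by 0.45 (SE 0.33, interval -1.23 to 0.33, limma adjusted p = 0.606), and neither passed the test. The value of Kcnip3 was -0.23 without mutant 1 and -1.22 with the largest entry only, and that of Kcnj14 was -0.24 with pseudocount 1 and -0.73 without the heterozygote. Without the wild-type embryo Kcnj14 did not reach the filter, and its mutant mean differed from the heterozygote alone by -0.17. The 2 estimates beyond 1.5-fold were those of Kcne4 (1.02, SE 0.41, interval 0.07 to 1.97, limma adjusted p = 0.358) and Kcnip1 (0.83, SE 0.37, interval -0.03 to 1.69, limma adjusted p = 0.403), and these did not pass the test either. With pseudocount 1 they were 0.46 for Kcne4 and 0.39 for Kcnip1, and without the wild-type embryo 0.70 and 0.55.

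**Figure D4:**
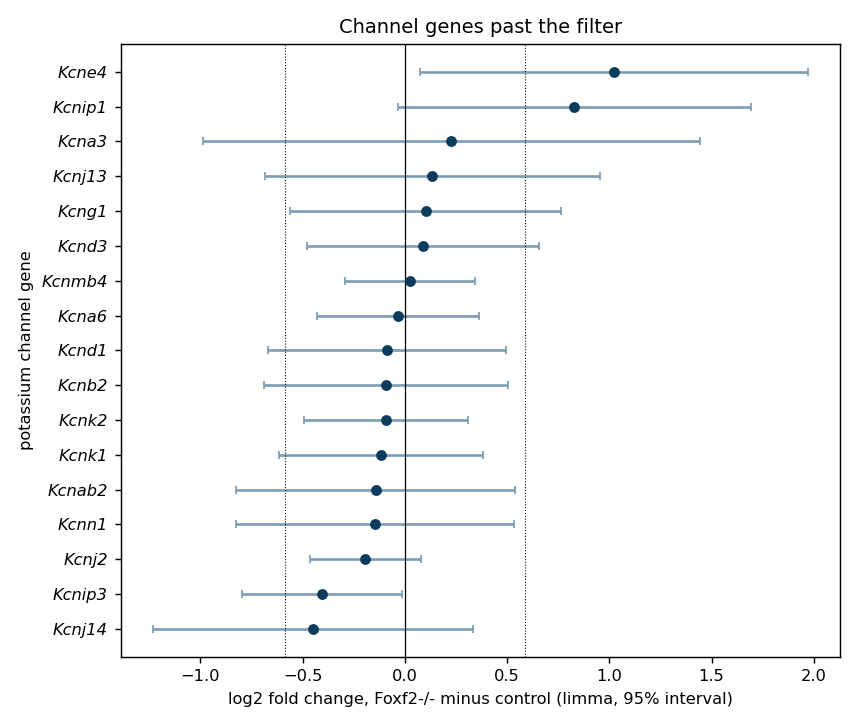
Limma log2 fold change of Foxf2-/- minus control (horizontal) with its 95% interval (bars) for each of 17 potassium channel genes (vertical), with dotted lines at 1.5-fold in either direction. Intervals narrow from Kcna3 (-0.99 to 1.44) to Kcnj2 (-0.47 to 0.08), and those of Kcne4 and Kcnip3 are the 2 that leave out 0.

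A second reading followed the 1.5-fold cutoff of the study, without a test, and asked that the mutant mean lie more than 1.5-fold from wild type and from the heterozygote on the same side. It took 1 of 19 channel genes, Kcne4, against 216 of all genes (1.87%), of which 101 were higher (0.873%) and 115 lower (0.994%). The Foxf2-/- mean of Kcne4 exceeded the wild-type embryo by 1.35 and the heterozygote by 0.70 on the log2 scale. Without mutant 1 Kcne4 no longer reached 1 FPKM and Kcnip1 took its place. Without the heterozygote, log2 fold changes beyond 1.5-fold were 1.35 for Kcne4, 1.11 for Kcnip1, 0.61 for Kcnj13 and -0.73 for Kcnj14. With only 1 control to differ from, the cutoff is easier to meet for any gene. Rescaling the embryos to a common median ratio added Kcnip1, for 2 of 19, and changed the split over all genes from 101 higher and 115 lower to 120 higher and 82 lower.

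Groups that do not overlap are common in a comparison of 2 with 2. Both mutants lay beyond both controls for 7 of 19 channel genes, against 5278 of all genes (45.6%), so the share in this family was no higher than elsewhere. The 3 higher ones included Kcne4 and Kcnip1, where 10.2% of all genes were higher, and Kcnb2, Kcnip3, Kcnj14 and Kcnj2 were the 4 lower ones, where 35.5% were lower. Of these, Kcnj14 passed the filter only through the wild-type embryo, and Kcne4 and Kcnip1 only through a mutant. After rescaling to a common median ratio Kcnd3 joined the higher genes, and the split over all genes became 19.9% higher and 22.5% lower. The heterozygote lay between the wild-type embryo and both mutants for 7 of 19 channel genes, against 28.7% of all genes. These were the 7 without overlap, and over all genes 3321 of the 5278 without overlap had that order. An exact permutation test of 2 against 2 embryos cannot give a two-sided p below 0.333, so no p is attached to any of these counts.

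Between the wild-type embryo and the heterozygote 4 of 19 channel genes differed by more than 1.5-fold, Kcna3, Kcne4 and Kcnj13 higher in the heterozygote and Kcnn1 lower, against 500 of all genes (4.32%). Of these, Kcna3 passed the filter only through the heterozygote, where it was counted as higher, and Kcne4 only through a mutant. The median of mean FPKM was 1.13 for the members past the filter and 6.66 for all genes past it. The share over all genes is therefore not matched for level. For the 14 members with a mean of 1 to 5 FPKM, the median ratio was 1.26-fold between the controls and 1.11-fold between the mutants, and for all 4227 genes in that range it was 1.12-fold and 1.13-fold. With 1 embryo of each control genotype, an effect of the heterozygous allele and the spread between embryos cannot be told apart.

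Under the filter, genes between 0.1 and 1 FPKM were read by values only. More than 1.5-fold from each control was reached by 8 of 42 channel genes, against 400 of 3560 genes in the same range (11.2%). The 5 higher ones were Kcna1, Kcne1, Kcnh2, Kcnh3 and Kcnj8, where 6.43% of genes in the range were higher, and the 3 lower ones were Kcng4, Kcnn2 and Kcns1, where 4.80% were lower. The genes that follow were chosen after their values had been seen. Kcne1, a small subunit that slows the cardiac channel formed by Kcnq1, was at 0.107 FPKM in wild type, 0.176 in the heterozygote, and 0.451 and 0.515 in the mutants. Kcnh2, the mouse ERG channel, was at 0.142 and 0.199 FPKM in controls and 0.570 and 0.454 in mutants. Both were higher in each mutant than in either control, and fitted over all genes without a filter they gave log2 fold changes of 1.28 (SE 0.27, limma adjusted p = 0.364) and 1.18 (SE 0.27, limma adjusted p = 0.370). With pseudocount 1 the values were 0.38 for Kcne1 and 0.37 for Kcnh2. The sum of the 9 neuronal and glial markers was also higher in each mutant than in either control, at 4.55 and 5.94 FPKM in controls and 10.6 and 6.89 in mutants. Of that list 3 were past the filter, Fabp7 reached 4.58 FPKM in mutant 1, and Sox10 was at 0.142 and 0.156 in controls and 0.469 and 0.352 in mutants. The 6 endothelial markers, 0 of them past the filter, summed to 0.404 and 0.608 FPKM in controls and 0.893 and 1.503 in mutants. Emcn held 0.450 and 0.812 of the mutant sums. Emcn, Kdr and Cdh5 were higher in both mutants, Pecam1 and Tek had overlapping groups, and Cldn5 was at 0. The part of either cell type in Kcne4, Kcnip1, Kcne1 and Kcnh2 was not tested. At a mean of 0.1 to 1 FPKM the 2 mutants differed from each other by a median of 1.27-fold over all genes.

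**Figure D5:**
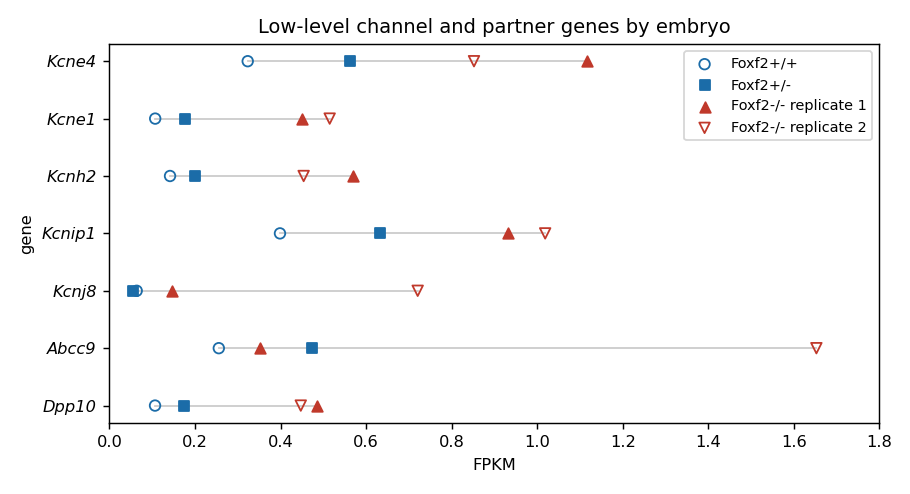
FPKM in each of the 4 embryos (horizontal) for 5 potassium channel genes and the partner genes Abcc9 and Dpp10 (vertical), chosen after their values had been seen. Both mutant (Foxf2-/-) symbols lie to the right of both controls for Kcne4, Kcne1, Kcnh2, Kcnip1 and Dpp10, while the high values of Kcnj8 (0.721) and Abcc9 (1.65) come from mutant 2.

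Kcnj8 and Abcc9 encode the pore and the sulphonylurea receptor of the vascular ATP-sensitive channel, and lie 16.5 kb apart on chromosome 6 with 0 genes between them. Kcnj8 was at 0.0638 and 0.0540 FPKM in controls and 0.146 and 0.721 in mutants. Abcc9 was at 0.256 and 0.473 FPKM in controls and 0.352 and 1.65 in mutants. In both genes mutant 2 alone was far above the rest. Abcc9 met the 1.5-fold criterion, passed the filter only through that embryo, and did not pass the test (log2 fold change 0.98, SE 0.68, limma adjusted p = 0.581), and without that embryo the log2 fold change of Kcnj8 went from 1.499 to 0.629. With pseudocount 1 it was 0.407 for Kcnj8 and 0.48 for Abcc9. These genes are also markers of pericytes. The 8 markers of pericytes and vascular smooth muscle, which include both, summed to 60.4 and 55.9 FPKM in controls and 54.5 and 60.0 in mutants, and most of each sum was Pdgfrb. Of the 7 past the filter 0 were called by limma. Rgs5 and Cspg4 had overlapping groups, Acta2 (3.00 and 2.87 in controls, 3.33 and 3.95 in mutants) and Notch3 (6.53 and 6.00, 6.55 and 7.17) were higher in both mutants, and Myh11 met the 1.5-fold criterion as lower (1.13 and 0.840, 0.364 and 0.443, limma adjusted p = 0.334). The embryo with the high Kcnj8 and Abcc9 was the one with the highest erythroid sum, 4240 FPKM, and the highest endothelial sum, 1.503, of which Emcn held 0.812. Their part in the 2 values was not tested. Abcc8, the receptor of the pancreatic and neuronal form, was at 0.0197 to 0.111 FPKM.

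The other partners of these channels were also read from a list. Of 11 partner genes outside the rule 6 were past the filter, 0 were called by limma (1 at an unadjusted p under 0.05, Lrrc55), and Abcc9 was the 1 that met the 1.5-fold criterion. Their median log2 fold change was -0.09, beside -0.08 over all genes. Amigo1, a membrane protein that joins Kv2 channels, was at 1.62 and 2.03 FPKM in controls and 2.18 and 2.27 in mutants (log2 fold change 0.28, SE 0.18, limma adjusted p = 0.555). Its groups did not overlap, and the mutants were the higher ones, but the value was 0.13 without the wild-type embryo and -0.0859 with the largest entry only. Dpp10, a Kv4 partner like Kcnip1, was at 0.107 and 0.175 FPKM in controls and 0.485 and 0.447 in mutants, under the filter. Its counterpart Dpp6 went from 1.15 and 0.533 FPKM to 0.526 and 0.506. Kcne1l, a Kcne relative that the rule does not take, was at 5.22 and 4.40 FPKM in controls and 3.23 and 4.18 in mutants, with a control mean of 4.81 beside 4.32 for Kcnip3, the highest member in controls. Lrrc55, a BK gamma subunit, was at 4.87 and 2.57 FPKM in controls and 1.59 and 2.21 in mutants (log2 fold change -0.88, SE 0.30, limma adjusted p = 0.320). It was -0.43 without the wild-type embryo, the highest of the 4, and -1.33 without the heterozygote. The study had listed Lrrc55 as changed from these same samples, so its direction here is not independent evidence.

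Other genes that set the membrane voltage were read in the same way, and 0 of them were called. Of 15 sodium pump genes 9 were past the filter, with a median log2 fold change of -0.16 and 1 unadjusted p under 0.05, for the beta subunit Atp1b2. Of 6 cation-chloride cotransporters 4 were past the filter, with a median of -0.07 and 0 unadjusted p under 0.05. Of 27 other cation channel genes 26 were in the tables and 9 were past the filter, with a median of -0.12 and 1 unadjusted p under 0.05, for Scn3a. The T-type calcium channel Cacna1g was at 31.1 to 35.3 FPKM in the 4 embryos, above every potassium channel gene. The sodium channel Scn3a met the 1.5-fold criterion as lower, at 1.92 and 1.55 FPKM in controls and 0.922 and 0.856 in mutants (log2 fold change -0.88, SE 0.24, limma adjusted p = 0.266, and -0.53 with pseudocount 1), and it too was on the list that the study drew from these samples. Of 9 channel genes known from human syndromes with facial features, Kcnj2 and Abcc9 were past the filter and 0 were called. Kcnj6 and Kcnk9 were listed at 0, and Kcnma1, Kcnn3, Kcnh1, Kcnj8 and Kcnk4 stayed under 1 FPKM.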

How the data were processed

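RNA-seq libraries had been made from RFP+ palatal mesenchyme cells of 4 embryos and sequenced by the authors, who mapped the single-end reads to mm9 with Bowtie (0.12.7 in the submitters' processing notes) and TopHat. The deposited FPKM values are Cufflinks estimates for RefSeq transcripts, 1 table for each embryo, and the deposited coverage signal was used only for relative depth. The study's own test needs read counts, and no counts are used here. FPKM was summed over the entries of a symbol of at least 200 bases, and 10 genes with a failed estimate were dropped. Genes at 1 FPKM or more in at least 1 embryo (11571 of 21352) were fitted in limma 3.58.1 (R 4.3.3) on log2(FPKM + 0.1) with a variance trend, 2 Foxf2-/- against 2 controls, and p-values were adjusted by Benjamini-Hochberg over all of them. A fold change on this scale understates changes of low genes. The self-written steps were tested on simulated data. Channel genes at 1 FPKM or more were named, except a few items that are counted but not reported here by name, and the rest were given by class. The members, lists and settings were chosen with earlier results of these data known. Positions come from the deposited tables, and coding sequences from GENCODE on the same build. Alternatives were pseudocount 1, a filter of 5 FPKM or none, all entries, the largest entry, median-ratio scaling, no variance trend, a mean for each genotype, a linear term in null alleles, a 2-fold threshold, and each embryo left out. Embryos are separate samples, with 1 library each, and no embryo was dropped or imputed in the reported fits.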

Additional observations from a re-analysis of the deposited data

How the results depend on the processing

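Of the 19 channel genes 0 were called by limma under each of the 13 alternatives, with a smallest adjusted p of 0.243, for Kcne4. Over all genes limma called 7, against 11 with pseudocount 1, 0 without a filter, 27 with all entries, 0 with the largest entry only, 12 with median-ratio scaling, 0 without the variance trend, 17 with a mean for each genotype, 15 with a linear term in null alleles, and 7 to 36 with 1 embryo left out (36 without the Foxf2+/- embryo, and 12 without either Foxf2-/- embryo). The 1.5-fold criterion took 216 genes, against 73 with pseudocount 1, 49 with a filter of 5 FPKM, 639 without a filter, 352 with all entries, 361 with the largest entry only, 53 at 2-fold, and 294 to 715 with 1 embryo left out (388 without the Foxf2+/+ embryo and 715 without the Foxf2+/- embryo). For channel genes it took 1, against 0 with pseudocount 1, 0 with a filter of 5 FPKM, 9 without a filter, 3 with the largest entry only (Kcne4, Kcnip1 and Kcnip3), 2 with median-ratio scaling, 0 at 2-fold, and 1 to 4 with 1 embryo left out. Groups did not overlap for 5278 genes, against 3506 with a filter of 5 FPKM and 6991 of 17171 without a filter. For channel genes the count was 7, against 0 with the filter of 5 FPKM, which none of them passes. Without a filter it was 31 of the 92 members, 11 of which were at 0 in every embryo. Without a filter more genes are tested, and with the filter of 5 FPKM fewer. The cause of the other differences was not tested.

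Among the 17 channel genes named 116 of 118 values under the 7 alternatives that keep all embryos had the direction of the reported fit. The exceptions were Kcna6 with median-ratio scaling (0.0389) and Kcnd1 with the linear term (0.0460), and outside the family Amigo1 turned with the largest entry only (-0.0859). Leaving out 1 embryo turned 11 of them in at least 1 fit, with log2 fold changes of -0.10 to 0.15 for Kcnmb4, -0.21 to 0.14 for Kcna6, -0.25 to 0.0636 for Kcnk2, -0.37 to 0.14 for Kcnk1, -0.29 to 0.12 for Kcnd1, -0.0206 to 0.19 for Kcnd3, -0.34 to 0.61 for Kcnj13, -0.45 to 0.16 for Kcnn1, -0.11 to 0.31 for Kcng1, -0.33 to 0.0464 for Kcnab2 and -0.46 to 0.49 for Kcna3. Kcnj2 stayed lower under every alternative, between -0.22 and -0.12, with limma adjusted p between 0.488 and 0.892. Where a fit left 1 embryo in a group, that embryo was assumed to vary like the others. No paired analysis was made, because the samples are separate embryos and neither the design nor the labels pair a mutant with a control. Every channel gene lies under 5 FPKM and the number of reads is unknown, so no interval for counting error can be given.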
